A study of Mus musculus with 16 samples.

Results

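Astrocytes release proteins that carry lipids, shape the matrix around cells, block proteases and bind growth factors. A set of 10 genes for such proteins was followed here among the 50600 genes of the deposited tables: Apoe and Clu, whose products are the main lipoprotein proteins that astrocytes make, Sparcl1, Thbs1 and Thbs2, whose products promote synapse formation, Sparc, whose product opposes Sparcl1 at synapses, Cst3 and Timp3, which encode inhibitors of cathepsins and of metalloproteinases, and Igfbp2 and Igfbp5, whose products bind insulin-like growth factors. The genes were chosen by name, and each matched a single Ensembl identifier. RNA was sequenced in 12 mouse clones that carry a 129/Sv genome from the mother and a Cast genome from the father, so reads over strain SNPs could be given to an allele. The clone called 129 is an astrocyte clone and is not to be confused with the 129 allele.

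The astrocyte group held 5 clones, of which 129, C2 and G4 were female and mC3 and mE6 male. They were neural progenitor cell (NPC) clones, each picked as a colony after dilution and derived in culture from F1 hybrid embryonic stem cells, that had been moved for a short time into medium with BMP4 and a low dose of FGF2. NPC clones stayed in EGF and FGF2. The poly(A) NPC group held 3 clones (F5, female, and mG2 and mG6, male), and 4 further male NPC clones (Ch3, Ch5, Ch7, Ch8) were prepared by removing ribosomal RNA, in 2 libraries per clone. The paper names a single female and a single male stem cell line, so sex and line of origin cannot be told apart. The astrocytes and poly(A) NPCs compared here are different clones, so the spread between clones is part of every difference, and the title prefix of a library (A234 or B129 for astrocytes, B145 for NPCs) changes with the cell type and cannot be told apart from it. Expression was compared between poly(A) libraries, and levels in the Ch clones were scaled apart and are given as background.

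In the NPC state these clones divide under EGF and FGF2. BMP4 is known to take such cells out of the cell cycle and towards an astrocyte fate, with Gfap, an intermediate filament gene, as its usual sign. Poly(A) libraries held 69.9 to 106 M reads on genes (M, megareads), of which 21.6 to 32.5 M were allele-specific, and Ch libraries 20.9 to 30.9 M, of which 4.19 to 5.97 M were allele-specific. Gfap was at 1977, 65.4, 224, 165 and 254 CPM (read counts scaled to library size, with TMM factors) in 129, C2, G4, mC3 and mE6, and at 0.669, 2.12 and 1.82 in F5, mG2 and mG6. Of 8 astrocyte markers 3 rose (Gfap, Aqp4 and Slc1a2), 1 fell (Aldh1l1) and 4 did not pass the test, and of 7 progenitor and cycling markers 4 fell (Mki67, Top2a, Nes and Egfr). The summed level of 8 mesenchymal and endothelial markers was 4.73 to 219 CPM in astrocytes and 2.09 to 3.51 in poly(A) NPCs. Most of this was Col1a1, highest in C2 at 211 CPM, while Col1a2, Cldn5 and Rgs5 were below 0.1 in all 8 libraries. Pecam1 was also called higher, at no more than 1.72 CPM. For 5 microglia markers the sum was 5.37 to 31.8 CPM against 1.41 to 11.1, with Tmem119 called higher and Aif1 and Cx3cr1 below 0.1. Oligodendrocyte lineage markers summed to 317 to 1726 CPM against 1804 to 2068, with Olig2 called lower and Sox10 and Mog below 0.1. Neuron markers summed to 465 to 1361 CPM against 975 to 1791, with Snap25 called higher. The part of such cells in the values below was not tested, and in bulk RNA more cells of a type and more RNA per cell cannot be told apart.

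Of the 10 genes, 4 were higher in astrocytes than in poly(A) NPCs (Clu, Sparcl1, Cst3 and Timp3) and 0 were lower at an adjusted p under 0.05 (edgeR quasi-likelihood test, Benjamini-Hochberg over all genes tested). Over all 18192 genes tested, 13.0% were called higher and 12.6% lower, 25.5% in all. The median log2 fold change of the 10 genes was 0.90, and that of all genes 0.08. In these 4 genes alone of the 10 every astrocyte clone was above every poly(A) NPC clone, a separation that 16.4% of all genes tested had.

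For 2 of these 4 genes, Cst3 and Timp3, RefSeq starts were at hand (GRCm38.p6), and the 250 bases before each start are printed because both genes rose together. Capitals mark GGGCGG on either strand, the GC box bound by SP1. This motif lies in 32.7% of all 32851 such windows, and each of the 2 windows held 1 match. Neither held TATAAA (in 12.4% of windows), GGCGCC, a motif of BMP SMAD proteins (9.59%), or TTCNNNGAA, a motif of STAT proteins (7.02%), searched on both strands. The motifs do not overlap here. A match is a run of letters and not a shown binding site. The Cst3 window is chr2:148875513-148875762 on the minus strand, and that of Timp3 is chr10:86300162-86300411 on the plus strand.
Cst3: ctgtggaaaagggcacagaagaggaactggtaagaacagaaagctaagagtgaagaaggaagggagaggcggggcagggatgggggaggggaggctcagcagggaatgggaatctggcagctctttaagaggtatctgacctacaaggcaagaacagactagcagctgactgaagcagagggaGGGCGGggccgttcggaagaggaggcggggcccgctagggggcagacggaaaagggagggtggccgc
Timp3: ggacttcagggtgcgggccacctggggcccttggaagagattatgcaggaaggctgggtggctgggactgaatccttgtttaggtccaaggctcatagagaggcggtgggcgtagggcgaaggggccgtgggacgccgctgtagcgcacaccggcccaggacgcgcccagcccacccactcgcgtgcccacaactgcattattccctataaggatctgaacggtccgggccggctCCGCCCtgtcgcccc

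**Figure D1:**
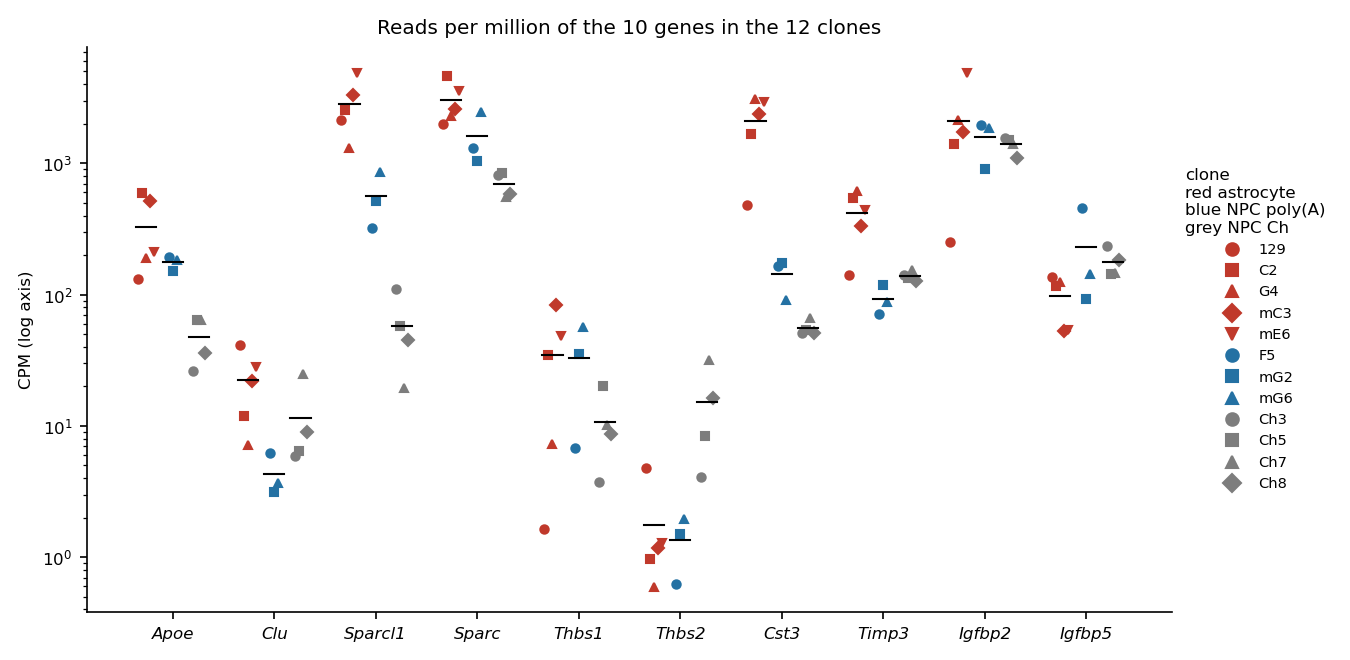
CPM (log axis) of the 10 genes in each clone, with astrocytes in red, poly(A) NPCs in blue, rRNA-depleted Ch NPCs in grey (scaled apart) and black lines for group means. For Clu, Sparcl1, Cst3 and Timp3 all 5 red points lie above all 3 blue points, and for Cst3, Timp3 and Igfbp2 the lowest red point is clone 129.

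Of the 10 genes Cst3 had the largest fold change. Cst3, at chromosome 2, 148871722 to 148875512 (GRCm38), encodes cystatin C, a secreted inhibitor of cysteine cathepsins. It was at 480 CPM in 129, 1668 in C2, 3097 in G4, 2385 in mC3 and 2950 in mE6, and at 164, 173 and 91.4 in F5, mG2 and mG6. Even the lowest astrocyte clone was above the highest NPC clone, and the group means were 2116 ± 1073 (SD, n = 5) and 143 ± 44.8 (SD, n = 3). The log2 fold change was 3.89 (SE 0.65, adjusted p = 0.00469), and Cst3 was called in all 16 alternative fits. Timp3 (chromosome 10, 86300412 to 86349505), which encodes a metalloproteinase inhibitor that stays bound to the matrix, was at 141, 539, 617, 330 and 444 CPM in 129, C2, G4, mC3 and mE6, and at 71.0, 119 and 87.8 in F5, mG2 and mG6. Clone 129 lay close above the NPC range, and the other 4 astrocyte clones were at least at 330. The log2 fold change was 2.16 (SE 0.47, adjusted p = 0.0129). Without F5 or without mG6, which leaves 2 NPC clones, the adjusted p was 0.0573 or 0.0535 at log2 fold changes of 1.997 and 2.07.

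Clu, at chromosome 14, 65968483 to 65981548, encodes clusterin, a lipoprotein-borne chaperone. Its level was 41.4, 11.98, 7.16, 22.2 and 28.3 CPM in 129, C2, G4, mC3 and mE6, and 6.17, 3.16 and 3.69 in F5, mG2 and mG6. The groups did not overlap, although G4 was close to F5. The log2 fold change was 2.35 (SE 0.60, adjusted p = 0.0226). The call was lost without mG2 (log2 fold change 2.17, adjusted p = 0.0927) and without mG6 (2.18, adjusted p = 0.0818). With only the astrocyte titles starting B129 (C2 and G4) the log2 fold change was 1.15 (adjusted p = 0.130), and with those starting A234 (129, mC3 and mE6) the gene was called.

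Apoe, at chromosome 7, 19696244 to 19701310, encodes the main lipid carrier protein of the brain. It was at 131 CPM in 129, 590 in C2, 191 in G4, 514 in mC3 and 212 in mE6, against 192, 150 and 184 in F5, mG2 and mG6. Only C2 and mC3 stood well above the NPC clones, and clone 129 was below all of them. The log2 fold change was 0.90 (SE 0.51, adjusted p = 0.224), so no change was shown. Over the 16 alternatives it was 0.54 to 1.33, and it passed the test in 1, with clones 129 and G4 left out together (1.33, adjusted p = 0.0480).

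The genes of synapse-related matrix proteins did not share a pattern. Sparcl1 (chromosome 5, 104079108 to 104114088), which encodes hevin, a synapse-promoting protein, was at 2129.6, 2557, 1313, 3325 and 4846 CPM in 129, C2, G4, mC3 and mE6, and at 321, 514 and 852 in F5, mG2 and mG6. The groups did not overlap, with a log2 fold change of 2.33 (SE 0.51, adjusted p = 0.0133). Without F5 the adjusted p was 0.0525, without mG2 0.0614, and with the B129 titles alone 0.0577, at log2 fold changes of 2.05, 2.27 and 1.79. Sparc (chromosome 11, 55394159 to 55420080) encodes a collagen-binding matricellular protein. Its level was 1998, 4615, 2286, 2599.5 and 3548 CPM in the same astrocyte clones, and 1311, 1047 and 2450 in the NPC clones. Here mG6 lay within the astrocyte range, and the log2 fold change of 0.91 (SE 0.40, adjusted p = 0.127) did not pass the test in the main fit or in any of the 16 alternatives. C2, the clone with the most Sparc, was also the one with the most Col1a1. However, mE6, next in Sparc, had the least Col1a1 of the astrocyte clones, at 2.39 CPM.

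The thrombospondin genes differed between clones more than between cell types. Thbs1 (chromosome 2, 118111876 to 118127133) was at 1.65, 34.8, 7.22, 83.2 and 48.0 CPM in 129, C2, G4, mC3 and mE6, and at 6.81, 35.4 and 57.0 in F5, mG2 and mG6. The highest astrocyte clone had 50.4 times the level of the lowest, and the highest NPC clone 8.37 times. F5 is the only female NPC clone of this fit, and it was lowest there. Among astrocytes the females 129, C2 and G4 were all below the males mC3 and mE6. The log2 fold change of Thbs1 was 0.08 (SE 1.08, adjusted p = 0.967), and 0.75 (SE 0.87, adjusted p = 0.576) with sex as a covariate. Thbs2 (chromosome 17, 14665500 to 14694262) was low, at 4.78 CPM in 129, 0.966 in C2, 0.596 in G4, 1.17 in mC3 and 1.27 in mE6, against 0.623, 1.51 and 1.95 in F5, mG2 and mG6. Only clone 129 stood out. Its log2 fold change was 0.37 (SE 0.73, adjusted p = 0.747), and -0.44 without clone 129. In the Ch clones Thbs2 was at 4.05, 8.34, 32.0 and 16.2 CPM in Ch3, Ch5, Ch7 and Ch8, all above the poly(A) NPC clones, a difference in which clone, preparation and scaling cannot be told apart.

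Of the growth factor binding genes neither passed the test. Igfbp2 (chromosome 1, 72824480 to 72852474), whose product binds insulin-like growth factors, was at 253, 1411, 2123, 1736 and 4892 CPM in 129, C2, G4, mC3 and mE6, and at 1964, 901 and 1851 in F5, mG2 and mG6. The astrocyte clones lay on both sides of the NPC clones, with a log2 fold change of 0.41 (SE 0.75, adjusted p = 0.730). Igfbp5 (chromosome 1, 72858065 to 72874865), close by on the chromosome, had the only negative estimate of the 10. It was at 137, 116, 125, 53.2 and 54.2 CPM in the astrocyte clones and at 458, 91.9 and 142 in F5, mG2 and mG6. The male astrocyte clones mC3 and mE6 were below all NPC clones, and F5 was far above the rest. The log2 fold change was -1.25 (SE 0.54, adjusted p = 0.122), -0.27 without F5 (adjusted p = 0.697), and -1.46 with sex as a covariate (adjusted p = 0.00423). Among the NPC clones of this fit only F5 is female.

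**Figure D2:**
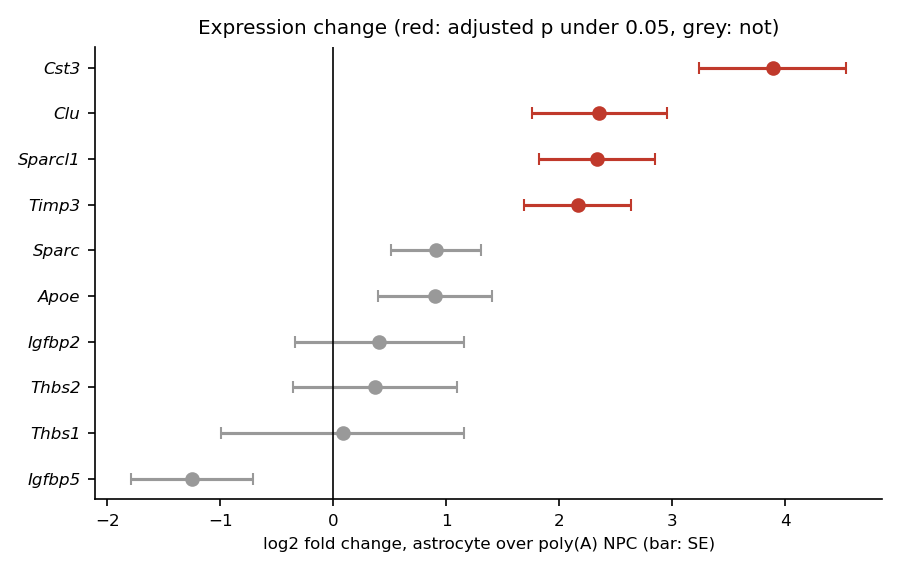
Log2 fold change of the 10 genes between 5 astrocyte and 3 poly(A) NPC clones with its SE, red where the adjusted p was under 0.05 and grey where it was not. Cst3 leads at 3.89, followed by Clu, Sparcl1 and Timp3 between 2.16 and 2.35, and Igfbp5 is the one estimate below 0.

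Between genes, levels were compared as CPM per kb of exon length. In astrocytes the order was Cst3 (1671 ± 848, SD, n = 5), Igfbp2 (1128 ± 930), Sparcl1 (910 ± 430), Sparc (894 ± 318), Apoe (165 ± 106), Timp3 (50.9 ± 22.9), Igfbp5 (16.2 ± 6.70), Clu (6.46 ± 3.95), Thbs1 (5.76 ± 5.45) and Thbs2 (0.296 ± 0.289). The first 4 overlapped one another within their spread, as did Clu and Thbs1. Among 32722 genes with a length, Cst3 was ranked 10, Igfbp2 19, Sparcl1 24 and Sparc 25 by mean level in astrocytes. In poly(A) NPCs the order was Igfbp2 (851 ± 316, SD, n = 3), Sparc (476 ± 221), Sparcl1 (181 ± 86.4) and then Cst3 (113 ± 35.4). In NPCs Cst3 was ranked 420 of all genes and Sparcl1 235. In the Ch clones Sparcl1 was at 110, 57.7, 19.3 and 44.9 CPM in Ch3, Ch5, Ch7 and Ch8, below each poly(A) NPC clone, and Apoe at 26.2, 64.1, 63.5 and 35.9, with the same limit on comparing the preparations.

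The astrocyte clones differed among themselves in these genes more than in most. The SD of log2(CPM + 1) over the 5 clones was 2.05 for Thbs1, 1.56 for Igfbp2, 1.11 for Cst3, 0.95 for both Apoe and Clu and 0.49 for Sparc, where the median of 13559 genes with a mean of at least 1 CPM was 0.37. Sparc, the steadiest, still had a larger SD than 66.9% of these genes, and Thbs1 than 98.4%. Clone 129 stood apart from the other astrocytes: it was the lowest of the 5 for Apoe, Sparc, Cst3, Thbs1, Timp3 and Igfbp2, and the highest for Clu, Thbs2 and Igfbp5, as well as for Gfap. Leaving it out kept all 4 calls.

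The genes whose pattern over the 8 poly(A) libraries was most like that of Apoe, Clu and Sparc were named by Pearson's r of log2(CPM + 1) among 9975 genes with a mean of at least 10 CPM. These values describe 8 libraries of 2 cell types. For Apoe they were Rasa3 (0.953), Ptgs2 (0.949) and Cers6 (0.920). Ptgs2, which encodes an inducible cyclooxygenase, was at 66.4 CPM in C2 and 43.3 in mC3, the clones with the most Apoe, and at 0.257 to 5.36 in the other 6. For Clu they were Arf2 (0.988), Prkag2 (0.986) and Mtfr1l (0.982), and for Sparc Tmem64 (0.953), Fgf1 (0.945) and Csgalnact2 (0.942). Fgf1, a growth factor gene, was at 419 to 1206 CPM in astrocytes and at 157, 150 and 420 in F5, mG2 and mG6, with mG6 highest of the NPC clones as for Sparc.

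Genes that act with these proteins were counted in the same fit, by lists, to be read beside the 13.0% of all genes called higher, the 12.6% called lower and the 25.5% called in either direction. Of 18 lipoprotein partners 17 were tested, and 4 rose and 0 fell, a count near the 25.5% called in either direction. Lcat, which encodes an enzyme that esterifies cholesterol on lipoproteins, had the largest log2 fold change at 4.38 (SE 1.30, adjusted p = 0.0394), from 3.85 to 6.29 CPM in NPCs to 8.49 to 355 in astrocytes. Abca1, the lipid exporter that loads ApoE, followed at 2.31 (SE 0.67, adjusted p = 0.0369), with 69.8 to 323 CPM against 411 to 1594. Of 15 cystatins and cathepsins 12 were tested, and 4 rose and 0 fell, all 4 of them protease genes. Ctsb, Ctsl and Lgmn encode cysteine proteases, the class that cystatins inhibit, and Ctsd encodes an aspartic protease, which they do not. Lgmn had a log2 fold change of 2.76 (SE 0.54, adjusted p = 0.00851) and Ctsb of 1.49 (SE 0.31, adjusted p = 0.0113). The median of this list was 1.07 and that of the lipoprotein partners 0.88, against 0.08 for all genes.

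Among 20 other matricellular and synaptogenic genes 16 were tested, and 6 rose and 0 fell, with a median log2 fold change of 1.32. Spock2, which encodes a SPARC-related proteoglycan, was at 149, 508, 61.2, 431 and 1100 CPM in 129, C2, G4, mC3 and mE6, and at 18.7 to 36.9 in NPCs, a log2 fold change of 4.01 (SE 0.94, adjusted p = 0.0172). Ccn1, a matricellular gene, had 3.78 (SE 0.71, adjusted p = 0.00739). Of 9 genes of receptors for thrombospondins and Sparcl1, 2 rose and 0 fell. This count is near the 25.5% of all genes called in either direction, where 13.0% were called higher. The integrin gene Itgb3 rose by 4.47 on the log2 scale (SE 0.70, adjusted p = 0.00362) and Cd47 by 2.004 (SE 0.46, adjusted p = 0.0152). The median of the 9 genes was 0.98.

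In the list of 15 metalloproteinases and inhibitors 3 rose and 2 fell, with a median log2 fold change of 0.69. Timp4, a relative of Timp3, rose from 10.1, 55.1 and 18.5 CPM in F5, mG2 and mG6 to 213 to 1007 in astrocytes, a log2 fold change of 4.43 (SE 0.80, adjusted p = 0.00621). Mmp9 had 4.12 (SE 0.89, adjusted p = 0.0125) at no more than 1.79 CPM in any library. The proteases Mmp15 and Adamts4 fell by 2.69 (SE 0.75, adjusted p = 0.0314) and 2.37 (SE 0.64, adjusted p = 0.0282) on the log2 scale. Of 15 genes of the insulin-like growth factor axis 13 were tested, and 3 rose and 2 fell, with a median of 0.14. Pappa, which encodes a protease of binding proteins, had 4587 reads in the 5 astrocyte libraries and 2 in the 3 NPC libraries, a ratio of 1405 (exact 95% interval 389 to 11604, counting error only), and was at 0.0750, 5.95, 13.9, 37.9 and 0.720 CPM in 129, C2, G4, mC3 and mE6. Igfbp6 had a log2 fold change of 2.84 (SE 0.39, adjusted p = 0.00208) at no more than 0.279 CPM. Igfbp3, the most abundant of the called genes of this list in NPCs, fell by 1.85 (SE 0.49, adjusted p = 0.0274), from 2342, 2005 and 4704 CPM in F5, mG2 and mG6 to 405 to 1371, and Igfbpl1 fell by 5.53 (SE 0.89, adjusted p = 0.00401) from 1.29 to 3.88 CPM.

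The allelic ratio is the share of allele-specific reads that came from Cast, in percent, for values with at least 20 such reads. Of the 120 values (10 genes in 12 clones, with the 2 libraries of a Ch clone summed) 119 had enough reads, Thbs2 in G4 being the exception with 17. Between 35 and 65% lay 81 of them, which is 68.1%, against 77.6% of 152350 values of all genes. Another 31 were biased and 7 were below 15 or above 85%. All 7 belonged to Clu and Thbs2. Sparc, Thbs1 and Timp3 were biallelic in all 12 clones. Brackets give 95% Wilson intervals, which cover counting error only, since PCR copies are not independent molecules.

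Over the 12 clones 6 of the 10 genes differed between alleles (edgeR quasi-likelihood test with clone as a term, adjusted p under 0.05): Apoe, Clu, Cst3 and Timp3 had more Cast reads, and Sparc and Igfbp5 more 129 reads. Of 12640 genes tested 42.2% were called, 15.8% towards Cast and 26.3% towards 129. With each gene set against the median of its chromosome the split was 2676 towards Cast and 2883 towards 129, against 2002 and 3330. An exact permutation test of the signs of the ratio minus 50 gave an unadjusted p under 0.05 for 6 genes as well, with 0.000488, the smallest that 12 clones allow, for Apoe, Sparc and Cst3. This permutation test was run on the 10 genes only, so no share of all genes stands beside it. Between astrocytes and poly(A) NPCs 0 of the 10 ratios differed at an adjusted p under 0.05, against 0.487% of 12121 genes tested. At an unadjusted p under 0.05 there were 4 (Sparc, Timp3, Thbs2 and Cst3), and in the same 4 the ratios of the groups did not overlap, as in 14.4% of all genes tested. The share of all genes at an unadjusted p under 0.05 is not given here.

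**Figure D3:**
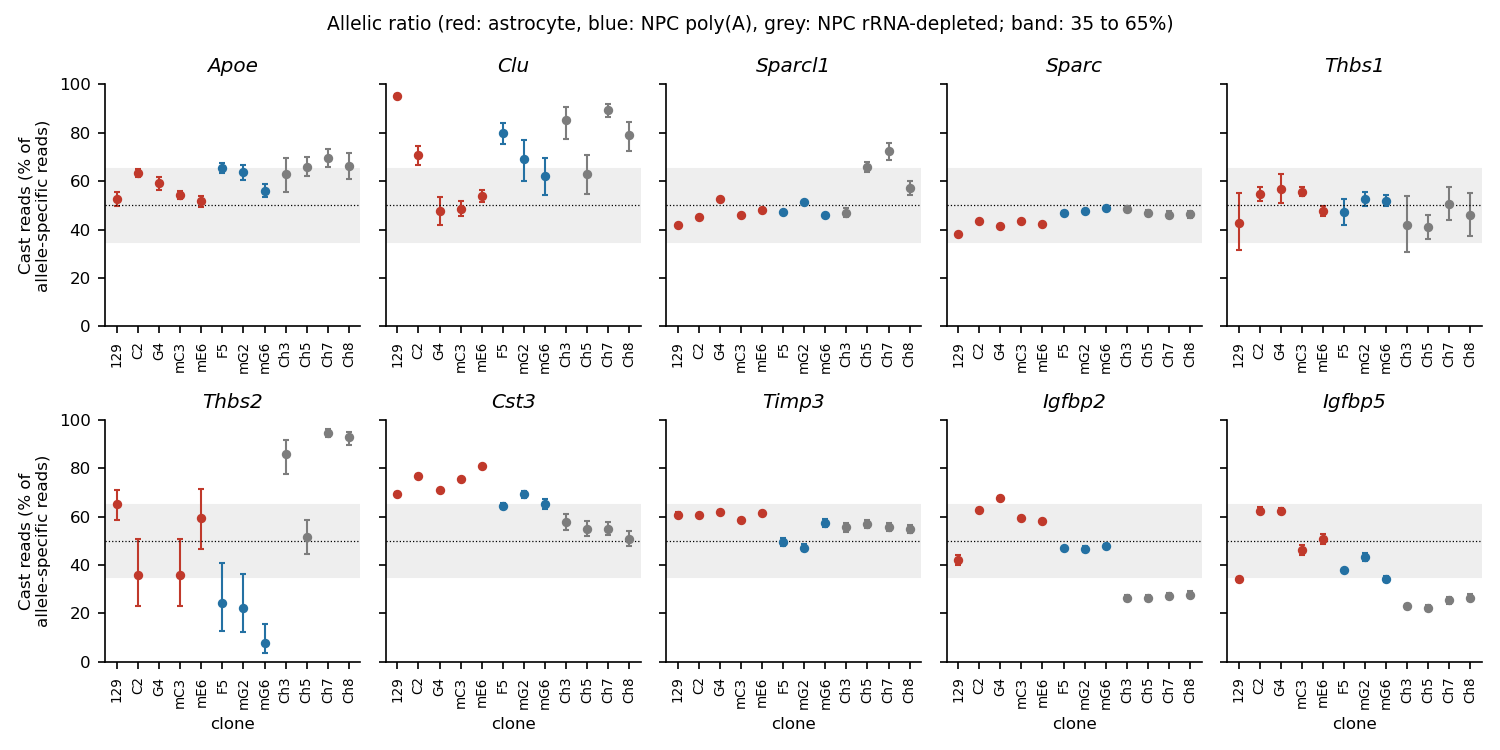
Percent of allele-specific reads from Cast in each clone with its 95% Wilson interval, astrocytes in red, poly(A) NPCs in blue and Ch NPCs in grey. The grey band spans 35 to 65%. Clu and Thbs2 spread widely between clones, Sparc and Timp3 keep within the band, and Igfbp2 and Igfbp5 are lowest in the Ch clones.

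Sparc showed the smallest spread. Its ratio was 38.0, 43.3, 41.3, 43.5 and 42.2% in 129, C2, G4, mC3 and mE6, and 46.9, 47.6 and 48.9% in F5, mG2 and mG6, with 14397 to 67670 reads each. In the Ch clones it was 48.4, 46.8, 46.2 and 46.3%. Every astrocyte clone was thus below every one of the 7 NPC clones, at a mean of 41.7 ± 2.25% (SD, n = 5) against 47.8 ± 0.976% (SD, n = 3) in poly(A) NPCs. The log2 ratio of Cast to 129 reads differed by -0.36 (SE 0.09, unadjusted p = 0.00454, adjusted p = 0.129). An exact permutation test of the ratio gave p = 0.0179, the smallest that 5 against 3 clones allow. With all 7 NPC clones, which mixes the preparations, the difference was -0.33 (adjusted p = 0.0119). Over all 12 clones Sparc had more 129 reads by 0.29 on the log2 scale (SE 0.06, adjusted p = 0.00114).

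Cst3 was above 50% in every clone, and furthest above in astrocytes. Its ratio was 69.3, 77.0, 71.2, 75.6 and 81.0% in 129, C2, G4, mC3 and mE6, 64.5, 69.3 and 65.3% in F5, mG2 and mG6, and 57.9, 55.0, 55.1 and 51.0% in Ch3, Ch5, Ch7 and Ch8, where the interval of Ch8 held 50% (47.7 to 54.2%). Clone 129 and mG2 were within their counting errors of each other (68.5 to 70.1% and 67.7 to 70.7%), and no astrocyte clone was below an NPC clone. The change of the log2 ratio was 0.61 (SE 0.21, unadjusted p = 0.0249, adjusted p = 0.271). With all 7 NPC clones it was 1.01 (adjusted p = 0.0232), which mixes the preparations, and here the Ch clones lay below every poly(A) NPC clone. Allele CPM are reads of an allele scaled to all allele-specific reads of the clone, without TMM factors. They are on another scale than the CPM of all reads and cannot be set against them. In allele CPM the Cast allele was at 994 ± 479 in astrocytes and 94.0 ± 34.0 in poly(A) NPCs, a ratio of means of 10.6. For the 129 allele these were 318 ± 147 and 47.2 ± 16.3, a ratio of 6.73 (SD, n = 5 and 3). Both alleles were thus higher in astrocytes. Over 12 clones the log2 ratio of Cast to 129 was 1.00 (SE 0.18, adjusted p = 0.000748).

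Timp3 also had higher ratios in the astrocyte clones than in poly(A) NPCs. It was at 60.9, 60.6, 62.1, 58.6 and 61.7% in the 5 astrocyte clones, at 49.6, 47.3 and 57.5% in F5, mG2 and mG6, and at 55.7, 56.9, 55.8 and 54.9% in the Ch clones. The astrocyte clones kept within 3.58 points of one another, whereas mG6 was well above the other 2 poly(A) NPC clones. The change of the log2 ratio was 0.55 (SE 0.13, unadjusted p = 0.00456, adjusted p = 0.129). It passed the test in 1 of 14 alternatives, without mG6, the NPC clone nearest to the astrocytes (adjusted p = 0.0498). The adjusted p was 0.335 without F5 and 0.322 without mG2. The exact permutation p was 0.0179. The Cast allele of Timp3 was 4.80 times and the 129 allele 3.199 times as high in astrocytes as in poly(A) NPCs by group means.

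Apoe was above 50% in all 12 clones. It was at 52.6, 63.5, 59.1, 54.3 and 51.6% in 129, C2, G4, mC3 and mE6, at 65.6, 63.7 and 56.1% in F5, mG2 and mG6, and at 62.9, 66.1, 69.6 and 66.4% in the Ch clones. In 129 and mE6 the intervals held 50% (49.9 to 55.4% and 49.4 to 53.8%). The log2 ratio over 12 clones was 0.65 (SE 0.10, adjusted p = 0.000278), and its change between the cell types was -0.34 (SE 0.20, adjusted p = 0.577). The 8 nearest genes with enough reads in all clones, within 207334 bp, were biallelic in 86 of 96 values. Tomm40, the nearest of them, was at 44.7 to 52.4% in the 12 clones. Pvr was at 0.209% in 129, 13.2% in mC3, 0.785% in F5 and 2.31% in mG2, and Bcam was lowest in 129, at 18.1%.

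Clu had a wide range of ratios, on 111 to 2085 reads. It was at 95.3% in 129 (94.3 to 96.1%, 2085 reads), 70.8% in C2, 47.7% in G4, 48.6% in mC3 and 53.8% in mE6, at 80, 69.4 and 62.1% in F5, mG2 and mG6, and at 85.2, 63.0, 89.4 and 79.0% in Ch3, Ch5, Ch7 and Ch8. Nearly all reads were Cast in 129, G4, mC3 and mE6 were near equality, and the other 8 clones lay above 60%. Clone 129 also had the highest level of Clu, and this lay in the Cast allele: 65.9 allele CPM for Cast and 3.28 for the 129 allele, where mE6 had 22.6 and 19.4 and C2 had 13.4 and 5.53. Likewise Ch7, with the most Clu of the Ch clones, had 41.0 allele CPM for Cast and 4.87 for the 129 allele, where the other 3 had 7.69 to 13.6 and 1.70 to 4.53. Over 12 clones the log2 ratio was 1.43 (SE 0.39, adjusted p = 0.0108), and 1.09 (adjusted p = 0.120) in the 8 poly(A) clones alone. The 8 nearest genes with enough reads in all clones, within 1045573 bp, were biallelic in 92 of 96 values. Trim35 held 3 of the 4 exceptions, at 100% in 129, 0.626% in G4 and 3.67% in F5.

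Thbs2 showed the widest range of all. It was at 65.2% in 129 (58.7 to 71.1%, 224 reads), 35.7% in C2 and 35.7% in mC3 (42 reads each) and 59.6% in mE6 (57 reads), but at 24.2% in F5 (33 reads), 22.2% in mG2 (45 reads) and 7.59% in mG6 (3.53 to 15.6%, 79 reads). The intervals of C2 and mC3 (23.0 to 50.8% each) overlapped those of F5 (12.8 to 41.0%) and mG2 (12.5 to 36.3%). In the Ch clones Thbs2 was at 86.2, 51.6, 94.8 and 92.8% with 94 to 688 reads. The poly(A) NPC clones thus leaned to 129 and 3 of the 4 Ch clones to Cast, which differ in preparation as well as in clone. Ch7 and Ch8, the clones with the most Thbs2, had 57.7 and 30.3 allele CPM for Cast, and 3.19 and 2.35 for the 129 allele. In Ch5 the alleles were at 8.87 and 8.33. The change of the log2 ratio from poly(A) NPCs to astrocytes was 2.57 (SE 0.76, unadjusted p = 0.0115, adjusted p = 0.193), with an exact permutation p of 0.0857 over 4 and 3 clones. The 8 nearest genes were biallelic in 88 of 96 values, at 35.3 to 68.7%, and the median of the 20 Mb around Thbs2 was 48.4 to 51.4% in all 12 clones.

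**Figure D4:**
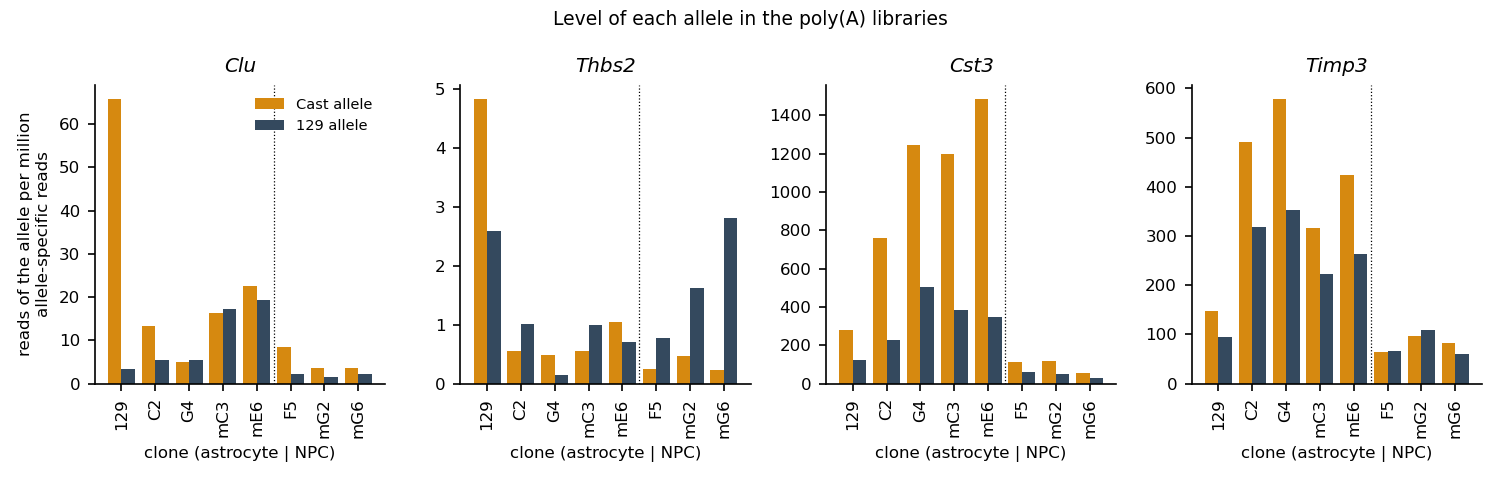
Allele CPM of the Cast and 129 alleles for Clu, Thbs2, Cst3 and Timp3 in the 5 astrocyte and 3 poly(A) NPC clones, with a linear axis from 0 in each panel. In Clu the Cast bar of clone 129 stands at 65.9 beside a 129-allele bar of 3.28, whereas in Cst3 both bars are taller in each astrocyte clone than in any NPC clone. In Timp3 this holds for the Cast bar, while the 129-allele bar of clone 129 (95.03) is below that of mG2 (108).

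Sparcl1 and Thbs1 had no shown allelic difference. Sparcl1 was at 42.1, 45.2, 52.6, 46.2 and 47.9% in 129, C2, G4, mC3 and mE6 on 63236 to 283025 reads, at 47.2, 51.3 and 46.0% in F5, mG2 and mG6, and at 47.0, 65.9, 72.3 and 57.3% in the Ch clones. Its highest ratio was in Ch7, the Ch clone with the least Sparcl1. The log2 ratio over 12 clones was 0.10 (SE 0.15, adjusted p = 0.627), and the change between cell types -0.08 (SE 0.15, adjusted p = 0.865). Thbs1 was at 41.0 to 57.0% in all clones on 63 to 3181 reads, with a log2 ratio of -0.04 (SE 0.09, adjusted p = 0.728). Its wide spread in level was thus not matched by a spread in ratio.

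Igfbp2 and Igfbp5 lie on chromosome 1, which was not balanced in 5 clones. The median ratio of its genes was 34.2% in clone 129 and 32.2 to 32.7% in Ch3, Ch5, Ch7 and Ch8, against 47.8 to 51.0% in the other 7 clones. On the 7 other chromosomes that carry the genes studied here it was 48.3 to 51.4% in all clones. Reads from chromosome 1 were also more abundant in clone 129, by a median log2 ratio of 0.46 to the other 4 astrocyte clones, where the other autosomes ranged from -0.14 to 0.09. In the Ch clones, relative to poly(A) NPCs, chromosome 1 was at 0.04 and the other autosomes at -0.64 to -0.23. The number of copies of the chromosome was not tested. Igfbp2 was at 42.2% in 129 and at 26.3, 26.5, 27.2 and 27.8% in the Ch clones. In these 5 clones its 8 nearest genes with enough reads had a median of 34.6%, within a range of 26.2 to 97.3%, and in the other 7 clones a median of 51.4%. In the other clones it was at 62.8, 67.9, 59.6 and 58.1% in C2, G4, mC3 and mE6, and at 47.0, 46.7 and 48.0% in F5, mG2 and mG6. Each of the 5 astrocyte clones was above the median of its own chromosome 1, by 7.94 to 17.5 points, and each of the 7 NPC clones was below, by 0.584 to 6.40 points. The change of its log2 ratio was 0.65 (SE 0.32, adjusted p = 0.458), and relative to the chromosome median 0.81 (SE 0.14, adjusted p = 0.0508), an alternative chosen after seeing the data that just misses the threshold.

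Igfbp5 was at 34.1, 62.5, 62.4, 46.3 and 50.8% in 129, C2, G4, mC3 and mE6, at 37.8, 43.4 and 34.2% in F5, mG2 and mG6, and at 22.9, 22.3, 25.4 and 26.6% in Ch3, Ch5, Ch7 and Ch8. All 7 NPC clones were below the median of their own chromosome 1, by 4.38 to 14.4 points, and the astrocyte clones lay on both sides, from -3.13 to 13.1 points. Over 12 clones the log2 ratio of Cast to 129 was -0.70 (SE 0.25, adjusted p = 0.0426), but -0.24 (adjusted p = 0.229) relative to the chromosome median and -0.22 (adjusted p = 0.507) in the 8 poly(A) clones. The call was also lost without any 1 of 8 clones (129, F5, mG2, mG6, Ch3, Ch5, Ch7 or Ch8), at log2 ratios of -0.73 to -0.59 and adjusted p from 0.0545 to 0.0855. In F5, mG2 and mG6, where chromosome 1 was at 51.0, 47.8 and 48.6%, Igfbp5 was below it, whereas in clone 129 and the Ch clones the gene and its chromosome were both low. For Igfbp2, the same setting changed the log2 ratio over 12 clones from -0.32 (adjusted p = 0.364) to 0.14 (adjusted p = 0.482).

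**Figure D5:**
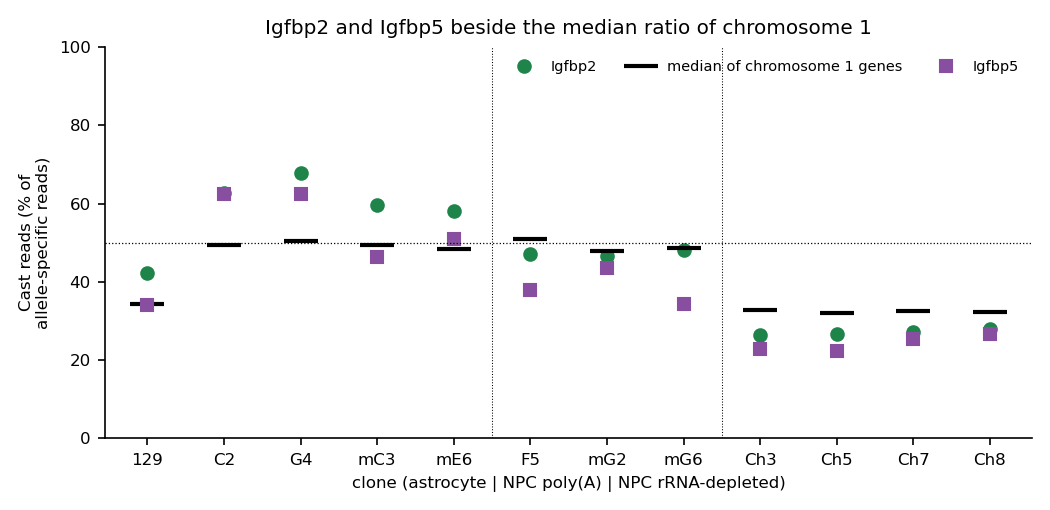
Percent Cast of Igfbp2 and Igfbp5 in each clone beside the median of chromosome 1 genes (black bars). In clone 129 and the 4 Ch clones the bars lie at 32.2 to 34.2%, and Igfbp2 is above the bar in every astrocyte clone and below it in every NPC clone.

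The 2 libraries of each Ch clone gave the error of a ratio between libraries. Over the 40 pairs (10 genes in 4 clones) 0 differed at an adjusted p under 0.05 (Fisher's exact test, Benjamini-Hochberg over all genes and clones). Of 42611 pairs of all genes, 0.322% were called at that adjusted threshold. Of the 40 pairs 5 had an unadjusted p under 0.05, for which the share of all pairs is not given here. The median difference was 1.65 points. The largest was 30.8 points, for Thbs1 in Ch8 (62.5% of 56 reads and 31.7% of 63, adjusted p = 0.105), followed by Thbs2 in Ch5 at 16.5 points (108 and 82 reads, adjusted p = 0.401). For Clu in Ch7 the libraries gave 89.9 and 88.7%, and for Thbs2 in Ch7 95.8 and 93.7%, so the strong Cast bias of these genes was the same in both to within 2.08 points. Each library was separate beyond sampling noise, with a chi-square per degree of freedom of 11.6 to 67.4 over genes. Whether the paired libraries come from separate cultures is not given. The Fisher tests rest on read counts alone, while the tests over clones judge a difference against the spread between these clones.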

How the data were processed

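RNA was sequenced from 16 libraries of 12 clones. Per the paper and labels, the authors aligned reads to a genome masked at strain SNPs (GRCm38) with TopHat2 (2.1.0) and Bowtie2, assigned alleles with SNPsplit and deposited raw counts per gene from featureCounts (1.5.1), strand-specific, for Cast, 129 and all reads. The deposited Cast fraction was not used. The annotation version is not given in the sources used here. Exon lengths came from the GENCODE annotation on NCBIM37, and positions from RefSeq (GRCm38.p6, 26023 identifiers matched).

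Counts were tested with edgeR (4.0.16, R 4.3.3; TMM, filterByExpr, quasi-likelihood). The expression fit used 5 astrocyte and 3 poly(A) NPC clones. Allele fits used Cast and 129 counts with a term per clone, keeping genes that reached 20 allele-specific reads in 6 of 12 clones, or in 3 astrocyte and 2 NPC clones. Fisher's exact test compared paired Ch libraries. Steps were tested on simulated data. CPM carry TMM factors, and allele CPM do not. Alternatives, among them DESeq2 (1.42.0), are covered in the closing section.

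The genes and lists were chosen with earlier results of these data known. The text gives the levels of all 10 genes in every poly(A) clone. In the Ch clones the levels of all 10 are plotted. The text gives them there only for Apoe, Sparcl1 and Thbs2, and in part for Clu. Allelic ratios are given in every clone with enough reads, for Thbs1 as a range. Of each list the 2 called genes with the largest change in each direction are given. For Apoe, Clu and Sparc the 3 genes of most similar pattern are given. The comparison with neighbouring genes (4 per side with enough reads in all clones) was added later. Tomm40, Pvr, Bcam and Trim35 were named after their values were seen.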

Additional observations from a re-analysis of the deposited data

Results flagged for a closer look

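In groups of 4 or 5 clones, a value was listed where its gap to the nearest clone took up an unusually large share of the group's range (Dixon's 95% limit). Of 40 groups examined, 2 passed, and chance gives about 1 in 20. Thbs2 was at 4.78 CPM in astrocyte clone 129, where the next clone had 1.27 (gap over range 0.838). Clu was at 24.7 CPM in Ch7, where the next Ch clone had 9.03 (gap over range 0.835), and both Ch7 libraries were high, at 26.0 and 23.7 CPM. In both cases the Cast allele held most of the reads.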

How the results depend on the processing

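For expression, 2 of the 10 genes passed the test with the B129 titles alone (Cst3 and Timp3), 2 to 4 with 1 clone left out, and 4 or 5 otherwise. The low counts came without F5, mG2 or mG6, which leaves 2 NPC clones, and there 2667, 2269 and 3030 genes were called in all against 4644. For the alleles, 5 or 6 genes passed with 1 clone left out and 4 in the poly(A) clones alone. For the ratio between cell types, 0 became 2 with all 7 NPC clones, 3 in the exact permutation test without adjustment, and 0 to 1 with 1 clone left out. Over all genes, 59 calls of a changed ratio became 650 with all 7 NPC clones, 127 relative to the chromosome median, 15 without 129 and G4 together, and 2 without F5, 13 without mG2, 21 without mG6, 19 without mE6, 28 without G4 or mC3, 37 without C2 and 72 without 129. The causes were not tested.

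Among the values recomputed, directions turned only in results that did not pass their test. The log2 fold change of Thbs1 was -0.65 and of Thbs2 -0.79 with the B129 titles, and of Thbs2 -0.25 without 129 and G4. With 1 clone left out it ranged from -0.52 to 0.69 for Thbs1, from -0.44 to 0.66 for Thbs2 and from -0.22 to 0.70 for Igfbp2. The log2 ratio of Cast to 129 in the poly(A) clones was -0.16 for Sparcl1, 0.077 for Thbs1, -0.67 for Thbs2 and 0.24 for Igfbp2, and relative to the chromosome 0.0013 for Thbs1 and 0.14 for Igfbp2. With 1 clone left out it was -0.0081 to 0.15 for Sparcl1 and -0.084 to 0.00030 for Thbs1. The change of the ratio for Thbs2 was -0.32 with all 7 NPC clones, and with 1 clone left out the change was -0.98 to 0.0029 for Clu, -0.16 to 0.014 for Sparcl1 and -0.029 to 0.18 for Thbs1. Of all values recomputed, 434 kept direction and side of the threshold, 19 lost the call, 5 gained one and 21 turned. No paired analysis was possible because the compared groups are different clones, and no label pairs samples across groups. Depth limited Thbs2, whose ratios in poly(A) NPCs rest on 33 to 79 reads.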
